A study of Homo sapiens with 17 samples.

Results

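The proteasome genes were described across 8 libraries of HEK-293T cells, a human embryonic kidney cell line. Members were all genes of the 1 h read table whose symbol starts with PSM, a letter from A to G and a number, which gave 48 of 19222 genes. They encode 7 widely expressed alpha subunits, 4 non-catalytic, 3 standard catalytic and 3 inducible catalytic beta subunits, 2 tissue-specific subunits, 6 ATPases and 11 other subunits of the regulatory cap, 7 assembly factors, and 5 activators or regulators. Wild-type cells were left untreated or received 1.8 µM emetine, an inhibitor of translation elongation, for 1 h together with 500 µM 4-thiouridine (s4U), with 3 libraries in each group. A library without s4U was made for each treatment. In a separate experiment cells received 250 µM s4U for 2 h with 0, 1.8 or 240 µM emetine, 3 libraries each, and for these only a mean level per gene pooled over all libraries was used. All cells were of 1 line, and the labels do not say whether replicates were separate cultures, so p-values measure the spread between these libraries, which may be technical.

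The proteasome degrades proteins that carry ubiquitin chains. Its barrel-shaped core holds rings of alpha subunits, which gate the entrance, and rings of beta subunits, of which PSMB5, PSMB6 and PSMB7 carry the standard active sites. Interferon signaling replaces these with PSMB8, PSMB9 and PSMB10 in the immunoproteasome. A cap of ATPases (PSMC genes) and other subunits (PSMD genes) binds, unfolds and feeds in substrates, and dedicated chaperones assemble the cap (PSMD5, PSMD9, PSMD10) and the core (PSMG genes). When the proteasome is impaired, the factor NFE2L1 raises transcription of its genes together.

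The 1 h libraries held 22246279 to 40018063 reads assigned to genes, of which the members took 1.00% to 1.01% in the untreated and 0.808% to 0.976% in the emetine libraries with s4U. Emetine replicate 3 stood apart from the others: the SD over genes of its log2 deviation from its group was 0.28, against 0.12 to 0.17 in the other 5 libraries, and that deviation had a Spearman correlation of 0.74 with transcript length across 12262 genes. Of the 45 members tested for level, 33 had a change over 1.5 times smaller without this library and 3 turned sign (PSMB10, PSMC6 and PSMG3). The summed level of 7 markers of the kidney line was 765 to 1019 CPM (read counts scaled to library size) in the 6 libraries with s4U. The largest was VIM, with a mean of 618 CPM in untreated cells, while KRT8, PAX2 and EPCAM were at 5.99, 1.80 and 0.722 CPM. The summed level of the 7 of 11 markers of leukocytes, liver, blood, testis and thymus found in the table was at most 9.61 CPM. PRSS16 (5.62 CPM) and CD68 (2.23 CPM) were the highest of these in untreated cells, and DDX4 and FOXN1 were at or near 0.

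Promoters of the members on which the results turn are shown because these genes had the largest level differences (PSMB9, PSMB3 and PSMD5) or encode the partner subunits of an activator (PSME1 and PSME2). The sequences are the 250 bases before the start site, from RefSeq on GRCh38.p14, 5′ to 3′ on the strand of the gene. Capitals mark TGACNNNGC on either strand, the core of the element bound by NFE2L1 and NFE2L2.
PSMB3 promoter, chr17:38752491-38752740, plus strand: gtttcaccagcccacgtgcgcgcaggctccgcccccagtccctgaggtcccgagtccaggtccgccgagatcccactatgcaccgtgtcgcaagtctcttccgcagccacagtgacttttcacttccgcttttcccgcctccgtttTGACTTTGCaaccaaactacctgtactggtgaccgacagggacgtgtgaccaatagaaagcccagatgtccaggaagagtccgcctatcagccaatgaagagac
PSMB9 promoter, chr6:32853942-32854191, plus strand: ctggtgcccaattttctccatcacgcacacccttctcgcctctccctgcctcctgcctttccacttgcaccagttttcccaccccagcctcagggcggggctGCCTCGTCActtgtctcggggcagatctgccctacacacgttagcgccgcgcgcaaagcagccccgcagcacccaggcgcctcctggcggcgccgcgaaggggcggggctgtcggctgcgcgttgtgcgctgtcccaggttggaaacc
PSMD5 promoter, chr9:120842923-120843172, minus strand: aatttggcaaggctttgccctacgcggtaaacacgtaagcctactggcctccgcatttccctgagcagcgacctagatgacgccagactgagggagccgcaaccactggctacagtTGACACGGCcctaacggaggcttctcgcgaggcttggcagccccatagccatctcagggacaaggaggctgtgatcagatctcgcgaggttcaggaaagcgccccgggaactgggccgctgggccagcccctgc
PSME1 promoter, chr14:24135944-24136193, plus strand: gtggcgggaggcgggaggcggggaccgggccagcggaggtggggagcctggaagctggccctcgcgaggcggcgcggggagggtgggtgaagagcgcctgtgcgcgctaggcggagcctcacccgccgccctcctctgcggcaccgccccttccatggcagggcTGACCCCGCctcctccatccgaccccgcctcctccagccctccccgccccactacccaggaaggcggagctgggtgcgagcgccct
PSME2 promoter, chr14:24146611-24146860, minus strand: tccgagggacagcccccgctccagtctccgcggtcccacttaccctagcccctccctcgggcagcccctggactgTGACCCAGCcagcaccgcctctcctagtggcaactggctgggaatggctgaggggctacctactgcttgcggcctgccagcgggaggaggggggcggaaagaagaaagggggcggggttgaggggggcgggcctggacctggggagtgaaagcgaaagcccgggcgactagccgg

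Each of these windows held 1 match, on the opposite strand in PSMB9. Of the 42 members with an entry in the RefSeq table, 13 (31.0%) had this core in a window, against 13.2% of all 27305 symbols in the table. CCAAT, the NF-Y box, was found for 19 members (45.2%, against 37.0% of all symbols). GGGCGG, the GC box, was found for 26 (61.9%, against 46.2%). Both strands were searched, none of the matches to the first core overlapped a match to the other boxes, and a match is a description of the letters only. Members and symbols with several entries were counted once.

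Levels of the subunits in untreated cells differed widely. Per length of the main transcript (RPKM, the CPM per kilobase), the level of PSMB4, a non-catalytic beta subunit, was highest at 671 ± 16.7 RPKM (SD, n = 3). Of the standard active-site subunits, PSMB5 was at 415 ± 7.50 RPKM, PSMB6 at 333 ± 6.75 RPKM and PSMB7 at 298 ± 6.24 RPKM. The alpha subunits lay between 72.1 and 387 RPKM, the ATPases between 37.0 and 213 RPKM, and the other cap subunits between 22.7 and 307 RPKM. The median over the 45 members tested was 98.6 RPKM. The exact length matters for such values, since several main transcripts carry a long stretch after the coding sequence (PSMF1, an inhibitor and regulator, has 7169 bases there), and the union of all annotated exons lowered the median to 55.5 RPKM.

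The immunoproteasome subunits PSMB8 and PSMB9 were low in these cells, and in bulk RNA few cells with more of an mRNA and many cells with little of it cannot be told apart. PSMB8 had 11, 5 and 3 reads in the untreated libraries and 4, 3 and 2 in the emetine libraries. PSMB9 was at 1.58, 1.35 and 1.56 CPM without and at 0.942, 1.12 and 1.01 CPM with emetine. The groups did not overlap, and the log2 change of PSMB9 was the largest of all members (-0.53 ± 0.23 SE, edgeR quasi-likelihood test, adjusted p = 0.23). PSMB10, the third inducible subunit, was at 32.3, 32.4 and 32.5 CPM without and at 32.5, 33.9 and 18.4 CPM with emetine, so only emetine replicate 3 was low. PSMA8 of the testis was seen with at most 1 read in a library with s4U, and PSMB11 of the thymus with 1 read in emetine replicate 3. PSMA8, PSMB8 and PSMB11 had no more than 100 reads over the 6 libraries and were not tested.

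**Figure D1:**
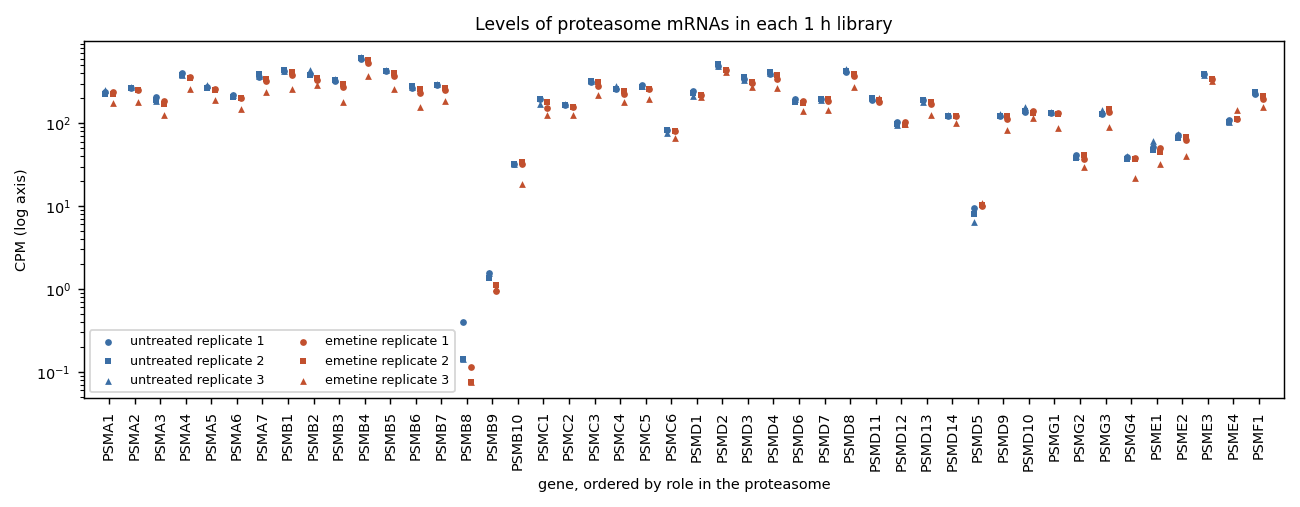
Level of each proteasome mRNA (CPM, log axis) in the 3 untreated (blue) and 3 emetine (red) libraries with s4U, ordered by role. PSMA8 and PSMB11, near 0, are not drawn; PSMB8 and PSMB9 lie far below the standard catalytic subunits, and emetine replicate 3 (triangles) is the lowest emetine library for most genes.

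The question of the 1 h comparison was which mRNAs change when elongation is inhibited. No member passed the test for level (0 of 45, edgeR quasi-likelihood test, adjusted p under 0.05), while 2.68% of all 13776 genes tested did. Of the genes called, 363 were higher and 6 lower. At an unadjusted p under 0.05, 11 members were lower, as were 6.95% of all genes tested. In the other direction 1 member was higher, against 2056 of 13776 genes. The DESeq2 Wald test also called 0 members, while it called 820 of 13776 genes higher and 156 lower. The fitted change was negative for 42 of 45 members. Their median log2 change was -0.23, against 0.030 over all genes. For 25 members every emetine library lay below every untreated library, as for 15.2% of all genes tested.

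The size of this shift depended on emetine replicate 3. Against the mean of the untreated libraries, the median member differed by -0.13 in emetine replicate 1, by -0.087 in replicate 2 and by -0.55 in replicate 3, on the log2 scale. Between the libraries without s4U, 1 for each treatment, the median member differed by -0.048 and 30 of 45 were lower with emetine. Without emetine replicate 3 the median change was -0.10, and 4 members passed the test, all lower, as did 3.87% of genes: PSMB2, PSMB3, PSMB7 and PSMD2. When each library's deviation was corrected by a smooth curve over length and GC content of the transcripts, the median was -0.13 and 5 members passed, all lower, as did 4.47% of genes. These were PSMB2, a non-catalytic beta subunit (-0.46, adjusted p = 0.041), PSMC4, an ATPase (-0.20, adjusted p = 0.048), PSMD2, a scaffold of the cap (-0.25, adjusted p = 0.022), PSMD8, a cap subunit (-0.19, adjusted p = 0.049), and PSME3, the nuclear PA28 subunit (-0.27, adjusted p = 0.018), all by edgeR. With the replicate block in that fit, 3 members were called, all lower (PSMD1, PSMD2 and PSME3), against 2.57% of genes, and PSMB2, PSMC4 and PSMD8 were not. The part of transcript length in the shift was not tested further. Members have shorter transcripts than other genes tested (median 1529 against 3445 bases), and in emetine replicate 3 the members' log2 differences had a Spearman correlation of 0.68 with length, against 0.13 for the mean of the other 2 emetine libraries (45 members, same libraries, description only).

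The sign also depends on the scaling. When libraries were scaled to spike-in reads instead of by TMM (edgeR's trimmed mean of M-values), the median over all genes moved to 0.71, all 45 members had a positive change with a median of 0.43, and 0 members passed. Relative to the median of all genes, 43 of 45 members were lower under either scaling, with a median difference of -0.26 for TMM and -0.28 for spike-ins. A new scaling multiplies all genes of a library by 1 factor, so this difference is nearly kept by construction and is not a second test. Spike-in reads were 0.304% to 0.666% of all reads in the emetine libraries with s4U and 0.480% to 0.728% in the untreated ones. All level changes below are on the TMM scale, so they are changes relative to the other mRNAs in the cell.

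**Figure D2:**
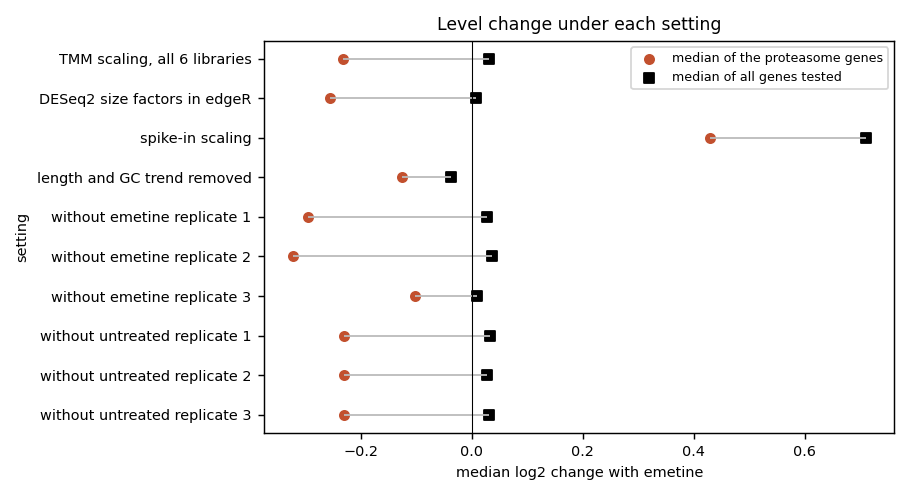
Median log2 level change with emetine for the proteasome genes (circles) and for all genes tested (squares) under each setting. The member median lies left of the all-gene median in each of the 10 settings drawn, by the least with the length and GC trend removed (-0.13 against -0.037), and under spike-in scaling both medians are positive. A change of scaling moves both medians together.

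Median changes were negative in each part of the proteasome. Over 16 core members tested the median log2 change was -0.30, over 17 cap members -0.21, over 7 assembly factors -0.17 and over 5 activators and regulators -0.30. Without emetine replicate 3 these medians were -0.14, -0.094, -0.043 and -0.16. The standard catalytic subunits were alike. PSMB5 was at 427, 431 and 442 CPM in untreated and at 373, 402 and 261 CPM in emetine-treated cells (log2 change -0.33 ± 0.15 SE, adjusted p = 0.24, edgeR). PSMB6 was at 268, 278 and 276 CPM without and at 232, 257 and 155 CPM with emetine (-0.35 ± 0.17, adjusted p = 0.25). PSMB7 was at 291, 289 and 300 CPM without and at 254, 264 and 187 CPM with emetine (-0.32 ± 0.13, adjusted p = 0.21). In all 3 the groups did not overlap and emetine replicate 3 was farthest from the untreated libraries. Without it the changes were -0.16 for PSMB5, -0.16 for PSMB6 and -0.18 for PSMB7, of which that of PSMB7 passed (edgeR, adjusted p = 0.049). PSMB3, a non-catalytic subunit, had the second largest change (-0.40 ± 0.17, adjusted p = 0.22), from 320, 334 and 341 CPM to 276, 301 and 180 CPM, and without emetine replicate 3 its change was -0.20 (edgeR, adjusted p = 0.041).

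The 7 alpha subunits all had negative changes, from -0.32 for PSMA7 to -0.17 for PSMA1, and the 6 ATPases ranged from -0.29 for PSMC4 to -0.062 for PSMC6. Without emetine replicate 3 PSMA7 was at -0.17, PSMA1 at -0.036, PSMC4 at -0.18 and PSMC6 at 0.028. PSMF1, which binds the core as a regulator, was at 225, 240 and 236 CPM without and at 198, 213 and 158 CPM with emetine (-0.30 ± 0.12, adjusted p = 0.20, edgeR), and its change was -0.18 without emetine replicate 3. The core chaperones ranged from -0.26 for PSMG4 to -0.10 for PSMG3. PSMG3 was at 128, 131 and 143 CPM without and at 137, 147 and 90.2 CPM with emetine, so that it was low only in emetine replicate 3. Without that library the change was -0.043 for PSMG4 and 0.090 for PSMG3.

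A few members went the other way or hardly moved. PSMD5, a chaperone of the cap's assembly, was at 9.43, 8.05 and 6.47 CPM in untreated and at 10.0, 10.4 and 10.8 CPM in emetine-treated cells (0.38 ± 0.16, edgeR, adjusted p = 0.21). These values rest on 263, 281 and 137 reads without and 351, 415 and 289 reads with emetine. In the untreated libraries most of these reads did not span a splice junction. PSME4, the nuclear activator PA200, was at 110, 104 and 104 CPM without and at 113, 113 and 144 CPM with emetine (0.21 ± 0.11, adjusted p = 0.28), the high value being emetine replicate 3. Without that library the changes were 0.35 for PSMD5 and 0.090 for PSME4. The smallest changes were those of the cap subunits PSMD12 (0.0034 ± 0.080) and PSMD11 (-0.059 ± 0.088) and of the ATPase PSMC6 (-0.062 ± 0.10), with all libraries.

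**Figure D3:**
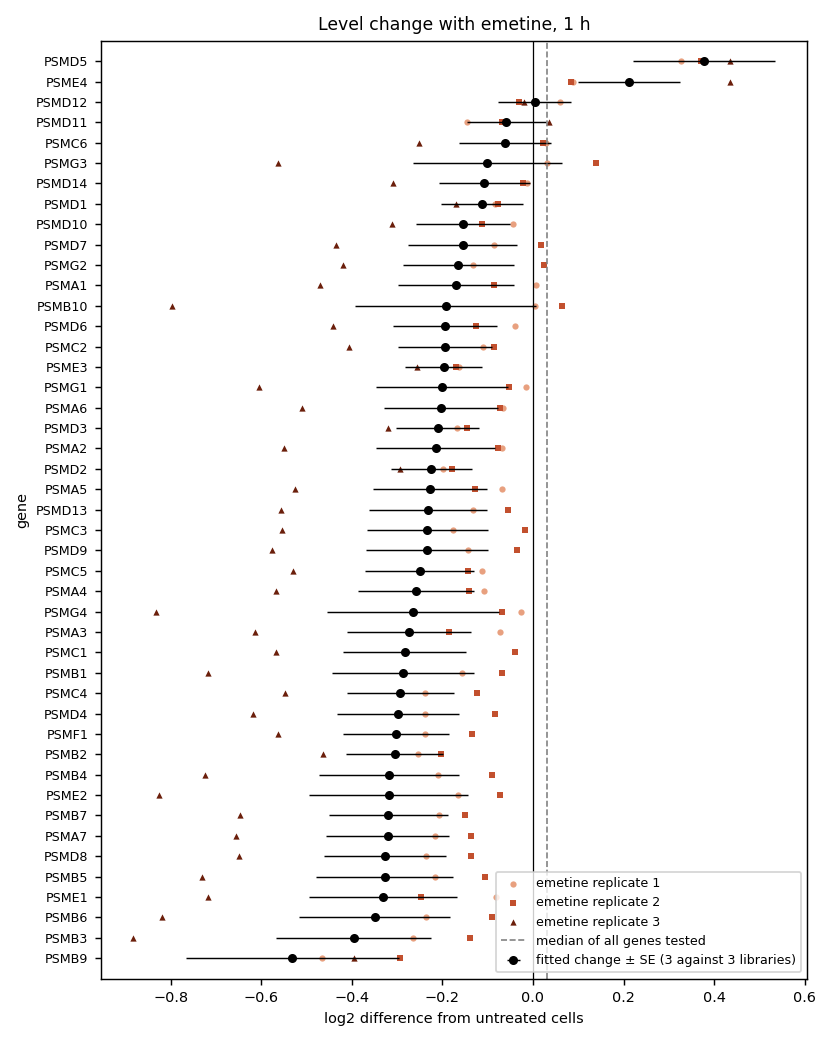
Log2 level change with emetine for the 45 members tested, ordered by size. Black points with bars are the fitted change and its SE, coloured points each emetine library against the mean of the untreated ones, and the dashed line the median of all genes tested; for most members emetine replicate 3 (triangles) lies left of the other 2, with exceptions such as PSME4 and PSMD5.

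Labeling with s4U marks RNA made during the hour, and the marked nucleotides read as T-to-C conversions after TimeLapse chemistry. The fraction new is the share of a gene's reads that a mixture of 2 binomial distributions assigned to RNA with conversions above background. In reads of the 44 members with at least 100 reads in each library, conversions were seen at 0.409% to 0.553% of T positions after s4U, against 0.0478% and 0.0510% in the libraries without s4U. Over all genes the converted share was 0.802% to 1.06%.

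Proteasome mRNAs turned over slowly in untreated cells. The median member was 3.60%, 4.73% and 5.78% new in the 3 untreated libraries, when the median gene was 9.26%, 12.3% and 14.7% new. In every untreated library, 41 of 44 members lay below the median of all genes, as did 43.8% of the 10763 genes tested. Under a steady state this gives a median half-life of 14.8 h for members, against 5.65 h for all genes. The libraries differed in labeling, and the members' medians of 18.9, 14.3 and 11.6 h follow the all-gene medians of 7.13, 5.26 and 4.36 h. Members had a larger share of reads that span a splice junction, and such reads were less new. In those reads alone the medians were 3.08%, 4.01% and 4.84% new for members, against 5.89%, 8.57% and 10.4% for all genes. The part of read kind in the difference from all genes was not tested. The order of the members was alike in the 3 libraries (Spearman correlation 0.94 to 0.96 over 44 members, libraries of 1 line, description only).

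PSMG3, a chaperone of the core, had the shortest half-life. Its mRNA was 16.6%, 22.1% and 23.0% new, a half-life of 3.09 ± 0.64 h (SD, n = 3), which placed it at the 26.1 percentile of the genes tested. In its reads 451 of 3562, 795 of 4564 and 464 of 3024 held at least 2 conversions, against 3 of 3645 in the untreated library without s4U. With emetine PSMG3 was 18.1%, 18.1% and 20.5% new, within the untreated range. The cap subunit PSMD7 (5.64 ± 0.69 h) and the chaperone PSMD5 (5.77 ± 1.18 h) came next and did not differ beyond their spread. Most PSMD5 reads did not span a splice junction, so its value may not be that of the spliced mRNA. The longest half-lives were those of PSMB4, a non-catalytic beta subunit (27.9 ± 8.58 h), PSMB7 (27.2 ± 6.97 h) and PSME2, a PA28 subunit. These cannot be told apart given their spread. PSME2 was 0.654%, 2.35% and 2.90% new, and its mean of 52.8 ± 45.8 h rests on the low value in untreated replicate 1.

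Half-lives also differed within and between roles. The medians were 16.5 h for the alpha subunits (7 genes, 13.7 to 26.8 h), 21.8 h for the non-catalytic beta subunits (4 genes) and 17.5 h for PSMB5, PSMB6 and PSMB7 (14.1 to 27.2 h). The 6 ATPases were closer together, with a median of 10.6 h (9.14 to 12.6 h). The other cap subunits ranged from 5.64 to 21.4 h with a median of 15.7 h, the 4 core chaperones from 3.09 to 19.6 h, and PA200 was at 7.93 h. The PA28 subunits had a median of 23.7 h (3 genes, 12.4 to 52.8 h). These are descriptions, and differences between roles were not tested.

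**Figure D4:**
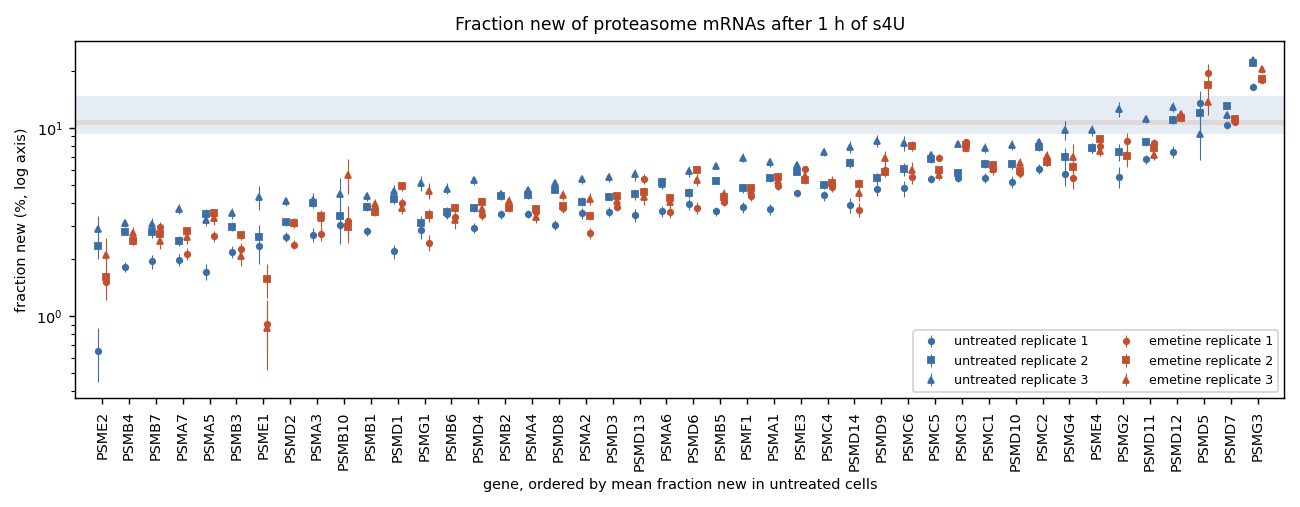
Fraction new (%, log axis) of 44 proteasome mRNAs in each library with s4U, ordered by the untreated mean, with bars for the counting SE. Shaded bands span the medians of all genes in the 3 untreated (blue) and 3 emetine (red) libraries; only a few mRNAs, led by PSMG3, reach the bands, and PSME1 is lower in the emetine libraries.

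Differences in fraction new with emetine were small for most members. The median change on the logit scale was -0.054, when it was -0.16 over all genes. 1 member passed the test lower (limma, adjusted p under 0.05), as did 4.83% of genes, and 0 passed higher, as did 0.214% of genes. PSMD5 went from 13.5%, 11.9% and 9.32% new to 19.6%, 16.9% and 13.8% new (0.43 ± 0.21 SE on the logit scale, limma, adjusted p = 0.28). Its reads with at least 2 conversions numbered 34 of 263, 30 of 281 and 11 of 137 without, and 60 of 351, 63 of 415 and 35 of 289 with emetine. For the standard catalytic subunits the groups overlapped. PSMB5 was 3.60%, 5.25% and 6.31% new without and 4.05%, 4.31% and 4.47% new with emetine (-0.15 ± 0.23, limma, adjusted p = 0.83). PSMB6 was 3.50%, 3.59% and 4.76% new without and 3.35%, 3.74% and 3.22% new with emetine. PSMB7 was 1.95%, 2.79% and 3.09% new without and 2.97%, 2.74% and 2.52% new with emetine. PSMD14, the cap's deubiquitinase, was 3.89%, 6.54% and 7.94% new without and 3.68%, 5.02% and 4.51% new with emetine (-0.31 ± 0.23, limma, adjusted p = 0.57). PSME3, PSMA1 and PSMC6 had the smallest changes (0.022, 0.022 and 0.032). The median over members was 0.072 when each library was centred on its median over all genes.

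PSME1 was the member that passed. It encodes the alpha subunit of PA28, an interferon-inducible activator that opens the core without ubiquitin, and lies on chromosome 14 (24136163 to 24138967, plus strand, GENCODE v44 on hg38), with the gene of its partner PSME2 close by on the minus strand (24143362 to 24147570). Its promoter with 1 NFE2L1 core is printed above. PSME1 mRNA was 2.36%, 2.62% and 4.29% new in untreated and 0.909%, 1.57% and 0.867% new in emetine-treated cells. The change was -1.04 ± 0.33 on the logit scale (limma, adjusted p = 0.045). Reads with at least 2 conversions numbered 22 of 1452, 36 of 1671 and 38 of 1285 without, and 11 of 1763, 22 of 1794 and 6 of 858 with emetine. In the libraries without s4U there were 1 of 1278 and 0 of 1474. The call rests on few labeled reads and was lost on leaving out any library but untreated replicate 1 (limma, adjusted p = 0.091 to 0.26). It was also lost in other alternatives, with adjusted p values up to 0.74 (limma) in junction-spanning reads alone. There its change was -0.83 and 0 of 6523 genes were called.

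Labeled PSME1 was at 1.23, 1.25 and 2.60 CPM without and at 0.458, 0.703 and 0.279 CPM with emetine (log2 change -1.13 ± 0.28, limma, adjusted p = 0.013). At such low values the size depends on the 0.5 CPM added before the log. With 0.1 CPM added the change was -1.61 (limma, adjusted p = 0.017). PSME1 was the only member called for labeled reads, in which 0.632% of genes tested were lower. The call was lost without emetine replicate 1 (limma, adjusted p = 0.23), emetine replicate 3 (0.32), untreated replicate 2 (0.057) or untreated replicate 3 (0.17). Without untreated replicate 1, 14 members were called for labeled reads, as were 16.7% of all genes. Its unlabeled reads had a log2 change of -0.32 (adjusted p = 0.24). The partner PSME2 was 1.52%, 1.61% and 2.10% new with emetine and had a change of 0.047 ± 0.35 in fraction new (adjusted p = 0.97, limma), and PSME3 was 4.49%, 5.84% and 6.38% new without and 6.08%, 5.26% and 5.58% new with emetine. The difference between PSME1 and PSME2 was not tested.

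**Figure D5:**
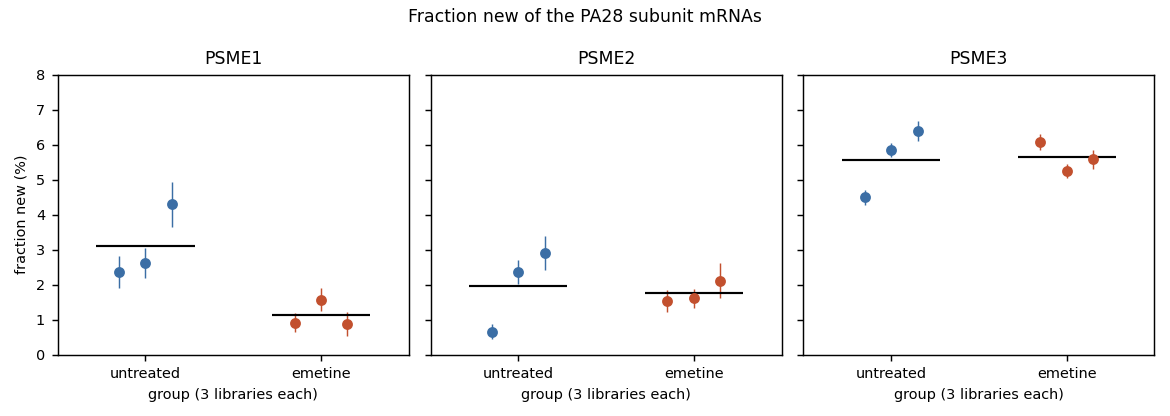
Fraction new (%) of the 3 PA28 subunit mRNAs in each library with s4U; points are libraries with their counting SE and horizontal lines the group means. For PSME1 the 3 emetine libraries lie below the 3 untreated ones, while for PSME2 and PSME3 the groups overlap.

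Levels were also split into labeled and unlabeled reads. Labeled reads had a median log2 change of -0.28 over members, against -0.14 over all genes. Unlabeled reads, the RNA that was already present, had a median of -0.25 over members, against 0.042 over all genes. Of the members 0 passed (limma), against 7.4% of genes called in either direction, 786 higher and 10 lower. At an unadjusted p under 0.05, 7 members were lower in unlabeled reads, as were 7.06% of genes. In the other direction 0 members were higher, against 2091 of 10763 genes. Without emetine replicate 3, the member median was -0.11 and 4 members passed lower in unlabeled reads, as did 3.56% of genes. These were the same 4 as for level.

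Reads that span a splice junction come from spliced RNA. They made up 65.6% to 74.3% of members' reads in the 6 libraries with s4U, against 42.2% to 50.5% over all genes. For single members the share ran from 5.84% in untreated replicate 3 to 99.5% in emetine replicate 2. In the untreated libraries with s4U the lowest share was that of PSMD5 (9.51%, 14.6% and 5.84%). PSMD5 was not among the 43 members tested for fraction new in such reads alone. Its level, fraction new and half-life therefore rest mostly on reads that do not show splicing. The median member was less new in junction-spanning reads than in its other reads in each of the 6 libraries (3.08% against 5.30% in untreated replicate 1). This held for 34 to 40 of 44 members per library, and the median over all genes went the same way (5.89% against 10.6% in that library).

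The 2 h experiment listed 43 of 48 members among 9982 genes. PSMA8, PSMB8, PSMB9, PSMB10 and PSMB11 were not listed. The authors' mean of normalized counts, pooled over all 2 h libraries, had a median of 1603 over the members and 845 over all genes listed, and 33 members lay above the latter. PSME4 was highest at 6959 and PSMD5 lowest at 141. The order of members was only partly that of CPM at 1 h (Spearman correlation 0.30 over 43 members and 0.54 over 9951 genes). The libraries of the experiments were prepared with different kits, and no dose was compared.

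Related genes were taken from 4 lists. Of 13 proteasome genes without a PSM symbol, 0 passed for level or fraction new. In unlabeled reads 1 passed, AKIRIN2, which brings proteasomes into the nucleus (log2 change 0.64, limma, adjusted p = 0.038), against 7.4% of all genes in either direction. Without emetine replicate 3, AKIRIN2 (0.49, edgeR, adjusted p = 0.0014) and ADRM1 (-0.20, edgeR, adjusted p = 0.032) passed for level. In that setting 1367 of 13579 genes were called higher and 525 lower. Among 13 factors of proteasome gene induction tested for fraction new, 1 passed lower, against 4.83% of all genes. NFE2L2, a relative of NFE2L1 that responds to oxidative stress, fell from 31.3% ± 7.06 to 18.0% ± 1.07 new (SD, n = 3, limma, adjusted p = 0.028). The unlabeled reads of NFE2L2 rose (0.53, limma, adjusted p = 0.025). NFE2L1 itself had a log2 level change of 0.052 (edgeR, adjusted p = 0.81).

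Among 14 ubiquitin shuttles and antigen presentation partners tested for fraction new, 1 passed lower, against 4.83% of all genes. IRF1, an interferon-responsive activator of immunoproteasome genes, fell from 71.6% ± 3.88 to 46.2% ± 3.08 new (limma, adjusted p = 0.0026), and its unlabeled reads rose (1.21, adjusted p = 0.0027). The ubiquitin genes UBB and RPS27A did not pass in any test. UBB was at 1928 ± 106 CPM without and 1491 ± 318 CPM with emetine (log2 change -0.37, edgeR, adjusted p = 0.22). The change of RPS27A was -0.35 (edgeR, adjusted p = 0.30). Without emetine replicate 3 the changes were -0.20 for UBB and -0.13 for RPS27A, and the lowest level of both was in emetine replicate 3, as for most proteasome mRNAs.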

How the data were processed

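HEK-293T cells were analysed in 8 TimeLapse sequencing libraries of 1 h and in the pooled means of the 2 h tables. Per the labels and methods, the authors trimmed reads with cutadapt and mapped them to hg38 with hisat-3n. bam2bakR then gave, per library and gene, deposited read counts with the number of T positions and T-to-C conversions per read. For 2 h, the deposited tables hold the authors' mean normalized signal per gene, from counts scaled to spike-ins. Their log2 fold changes, errors and p-values are the authors' own comparisons and were not used.

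Counts were summed per gene, and genes with over 100 counts in total were tested with edgeR 4.0.16 (TMM, quasi-likelihood, R 4.3.3). The fraction new was estimated by maximum likelihood, with the background conversion rate from the library without s4U of the same treatment (0.0504% and 0.0521%) and 1 rate of new reads per library (8.49% to 9.53%). Where all 6 libraries had 100 reads or more, genes were tested on the logit with limma 3.58.1 (trend, robust). This replaced bakR. Labeled and unlabeled reads are CPM times the fraction new or its complement, tested as log2(CPM + 0.5). P-values were adjusted by Benjamini-Hochberg over all genes tested. Half-lives assume exponential decay over the hour of labeling (fraction new = 1 - exp(-ln(2) / half-life in h)) and are averaged over libraries. The formula has no term for dilution by cell growth, so the hours, the longest above all, are not those of decay alone. Lengths came from GENCODE v44 main transcripts. Reads without a gene were 16.0% to 17.2% of reads per library and ambiguous ones 0.976% to 1.09%. Counting error gave a median SE of 0.255 to 0.377 percentage points of a member's fraction new. The tests were tested on simulated data: edgeR recovered 75% of 0.5 log2 changes among 13776 genes, and limma 39% of 0.5 logit changes among 10763 genes. Both simulations had less spread than the data and no library that stood apart as emetine replicate 3 did. For edgeR the changes were placed in well-covered genes only. These shares may therefore overstate what the tests recover here.

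Named genes were the catalytic subunits, members past a test, the 3 largest and smallest changes in level and in fraction new, the 3 longest and shortest half-lives, members too low to test, and related genes past a test or encoding ubiquitin, of which some are not reported here. The members and lists were chosen with earlier results of these data known. Reads shared with near-identical pseudogene copies could not be told apart.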

Additional observations from a re-analysis of the deposited data

How the results depend on the processing

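Counts of members past the threshold moved with the setting. For level, 5 members passed with the length and GC trend removed, 3 with the replicate block and that trend removed, and 0 to 4 when leaving out each library in turn, against 0 with all libraries. The 4 were reached without emetine replicate 3, and without any other library the count was 0. The median level change over members was -0.32 to -0.10 without each library, and 0.43 under spike-in scaling. For fraction new, the 1 call (PSME1) was lost with 1 set of conversion rates, with at least 50 reads, in junction-spanning reads alone and when weighted by reads, which gave 0 members each. The count ranged from 0 to 2 when leaving out each library, and was 0 on leaving out any library but untreated replicate 1. The 2 were PSME1 and PSMD14, both lower, without untreated replicate 1, where 2524 of 10763 genes were called lower and 41 higher. The median change in fraction new was 0.072 when centred on library medians and -0.18 to 0.065 without each library, lowest without untreated replicate 1 and highest without untreated replicate 3. For labeled reads, 0 to 14 members were called without each library, 14 without untreated replicate 1, where 16.7% of all genes were called, and for unlabeled reads 0 to 4. The median half-life was 11.1 h with 45 min of effective labeling, 17.9 h in junction-spanning reads alone and 13.2 to 16.1 h without each untreated library. The median level per length was 55.5 RPKM over the union of exons and 94.1 to 101 RPKM without each untreated library. The cause of these moves was not tested.

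Samples with the same replicate number did not deviate together (Pearson correlations 0.088, -0.0060 and -0.14 for level), so the numbers were not treated as pairs. With the replicate block 0 members were called for level and 1 for fraction new (PSME1), and over all genes the level calls went from 369 to 78 (75 higher, 3 lower). Depth limits PSMA8, PSMB8, PSMB9, PSMB11 and PSMD5, and PSME1, whose labeled reads are few.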
